A study of Mus musculus with 8 samples.

Results

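Interferon gamma induces 2 families of GTPases in mouse cells, and 10 genes of this response were followed through the tumour libraries of mice on a high cholesterol or a normal diet. The members, chosen by gene symbol among the 34745 genes of the deposited tables, were the guanylate-binding proteins Gbp2, Gbp3, Gbp5, Gbp7 and Gbp9, the immunity-related GTPases Irgm1, Igtp and Iigp1, the transcription factor gene Irf1 and the feedback inhibitor gene Socs1. Tumours were grown under the skin of C57BL/6J mice, an inbred strain with an intact immune system, from injected B16F10 cells, a melanoma line of the same strain. The HCD group (HCD 1 to HCD 4) came from 4 tumours of mice on a high cholesterol diet, and the ND group (ND 1 to ND 4) from 4 tumours of mice on a normal diet. All 8 tumours stem from this 1 cell line, and the labels give neither the age and sex of the mice nor whether each tumour came from its own mouse, so the p-values reflect no more than sample-to-sample spread, part of which may be technical. Melanocyte marker genes were present in every tumour: the 8 genes of this list had summed levels of 27073 to 31399 CPM (counts per 1e6 counts of the library, TMM-normalized) in HCD and 29339.9 to 30889.6 CPM in ND.

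Interferon gamma is secreted mainly by T cells and NK cells. Its receptor activates the kinases JAK1 and JAK2, and the signal acts through GAS elements in promoters such as that of Irf1. IRF1 then binds interferon-stimulated response elements, which carry paired GAAA motifs, at many later targets, the GTPases of both families among them. SOCS1 closes the loop by inhibiting the JAK kinases. The GTPases act inside cells against vacuolar microbes, and in tumours their transcripts are often read as a trace of interferon signalling in tumour and immune cells alike. In bulk tumour RNA, fewer cells of a type and less RNA per cell cannot be told apart.

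Promoter windows around RefSeq start sites (GRCm38.p6) were searched for 8 of the 10 members, from 250 bases before to 50 bases after the start. No window of Gbp9 or Iigp1 was searched, so the motif counts do not cover these members. The paired motif GAAANNGAAA (TTTCNNTTTC on the other strand) was in a window of 7 of these 8 members, against 3.44% of all 32851 promoter windows of the same length. The GAS motif TTCNNNGAA, which reads the same on both strands, was in 4 of the 8, against 8.3% of all windows. Irf1 was the member with a GAS match and no paired GAAA match, while Gbp5, Gbp7 and Igtp had both. The stretches below are shown because they hold these matches, in capitals. A match is a description of letters and not a bound site.
Irf1 (chr11:53769899-53769957, + strand; GAS match): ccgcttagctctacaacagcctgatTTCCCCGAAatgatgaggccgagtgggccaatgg
Gbp2 (chr3:142620579-142620638, + strand): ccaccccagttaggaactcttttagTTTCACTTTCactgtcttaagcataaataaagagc
Gbp3 (chr3:142559974-142560039, + strand; 2 overlapping paired matches): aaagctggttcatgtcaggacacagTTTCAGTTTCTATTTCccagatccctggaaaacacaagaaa
Gbp7 (chr3:142530205-142530317, + strand; GAS, GAS, then paired GAAA): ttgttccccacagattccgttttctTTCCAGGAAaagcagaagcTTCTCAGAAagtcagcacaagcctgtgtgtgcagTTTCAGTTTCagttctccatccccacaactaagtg
Irgm1 (chr11:48871410-48871475, - strand; 2 overlapping paired matches): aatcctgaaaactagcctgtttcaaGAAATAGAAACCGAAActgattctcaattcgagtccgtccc
Igtp (chr11:58199486-58199556, + strand; GAS, then paired GAAA): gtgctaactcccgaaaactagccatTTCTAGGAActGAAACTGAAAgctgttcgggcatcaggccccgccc
Socs1 (chr16:10785579-10785644, - strand; 2 overlapping paired matches): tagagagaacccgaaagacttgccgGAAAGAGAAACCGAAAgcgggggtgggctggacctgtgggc

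In these promoters the first paired match began 30 bases before the RefSeq start in Irgm1, 34 bases in Igtp, 45 in Gbp3, 53 in Gbp7, 59 in Gbp2, 83 in Socs1 and 165 in Gbp5. The GAS match of Irf1 began 90 bases before its start.

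Library depth did not separate the samples. Total counts ran from 16137885 to 17722093 in HCD and from 14599222 to 17637202 in ND. Genes with a count numbered 16285 to 16728 in HCD, against 16745 in ND 1 and 18088 to 18224 in ND 2, ND 3 and ND 4. Of the olfactory and vomeronasal receptor genes, 8 to 13 had counts in HCD, against 11 in ND 1 and 438 to 465 in ND 2, ND 3 and ND 4. This split sets ND 2, ND 3 and ND 4 apart from every HCD library. It largely coincides with diet, so the diet contrast cannot be fully told apart from it. ND 2 stood apart for the members as described next, so results are given with and without it. It was singled out after its values were seen.

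All 10 members were lowest in ND 2, a normal diet tumour. Over the other 7 tumours, the levels of a member spanned 1.26-fold (Gbp3) to 2.48-fold (Gbp2). Summed over the 10 members, the level was 1201, 872, 1039 and 860.4 CPM in HCD 1 to HCD 4, against 1357, 112, 1081 and 1043 CPM in ND 1 to ND 4. ND 2 was therefore 7.71-fold below the lowest of the other libraries, HCD 4. For 9 members ND 2 lay more than 4-fold below every other library, and Irf1 was the exception at 3.42-fold. Of the 12444 tested genes with a mean of at least 1 CPM, 16.7% were lowest in ND 2. Each other library was the lowest for 10.7% to 16.1% of them. Of these genes, 0 to 3 met the 4-fold criterion in an HCD library and 4 to 8 in ND 1, ND 3 and ND 4. In ND 2 it was met by 106, or 0.852%. Because all 10 members were lowest in ND 2, no member could meet the criterion in another library. No test was made of 1 library against the rest.

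**Figure D1:**
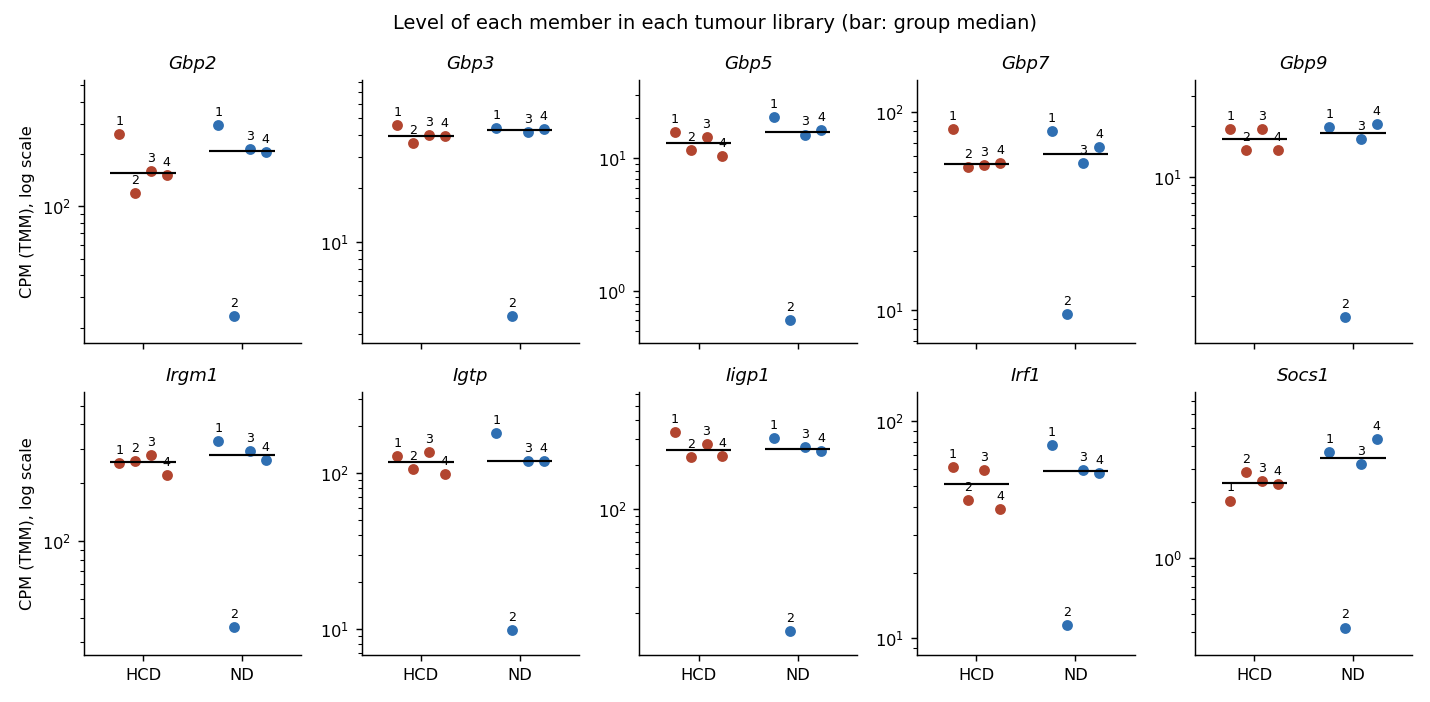
TMM-normalized CPM of each of the 10 members (log axis) in the 4 HCD and 4 ND tumour libraries; each point is 1 library with its replicate number and the bar is the group median. ND 2 is the lowest point in every panel, and the other 7 libraries of a gene span 1.26-fold (Gbp3) to 2.48-fold (Gbp2).

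Irf1 (ENSMUSG00000018899, chromosome 11, 53770014 to 53778374, GRCm38/mm10) encodes the transcription factor that relays the signal to later targets. It had 61.6, 43.4, 59.5 and 39.4 CPM in HCD 1 to HCD 4, against 77.6, 11.5, 59.8 and 57.8 CPM in ND 1 to ND 4. Every HCD value lay between the ND 2 value and the ND 1 value, so the groups overlapped. Of the 10 genes, Irf1 kept the largest share of its level in ND 2, at 19.3% of the median of the other 7 libraries.

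Socs1 (ENSMUSG00000038037, chromosome 16, 10782240 to 10785536), the JAK inhibitor, had the fewest counts of the 10 members, with 34, 48, 45 and 44 counts in HCD 1 to HCD 4 and 65, 7, 52 and 63 counts in ND 1 to ND 4. These counts correspond to 2.04, 2.91, 2.6 and 2.5 CPM in HCD, against 3.72, 0.422, 3.21 and 4.37 CPM in ND. With ND 2 aside, every HCD value was below every ND value. Of the 10 members, 1 was separated in this way, and 13.8% of the genes tested without ND 2 were. The ND 2 count of 7 has an exact Poisson 95% interval of 2.81 to 14.4 counts, which covers counting error only.

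Among the guanylate-binding proteins, large GTPases of the dynamin superfamily, Gbp5, Gbp7, Gbp3 and Gbp2 lie in this order within 144 kb of chromosome 3. Gbp2 (ENSMUSG00000028270, 142620602 to 142638008), which coats parasite vacuoles in mouse cells, had 261, 119.7, 160.2 and 151 CPM in HCD 1 to HCD 4 and 296, 23.2, 213 and 205 CPM in ND 1 to ND 4. In 3 HCD tumours it was below ND 1, ND 3 and ND 4, while HCD 1 lay among them. Its spread over the libraries other than ND 2 was the widest of the 10 members, at 2.48-fold.

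Gbp5 (ENSMUSG00000105504, 142493978 to 142522344), a promoter of inflammasome assembly, had 15.8, 11.6, 14.5 and 10.4 CPM in HCD 1 to HCD 4 and 20.5, 0.603, 15.1 and 16.3 CPM in ND 1 to ND 4. It showed the deepest drop in ND 2, at 4% of the median of the other 7 libraries. That value rests on 10 counts (exact Poisson 95% interval 4.8 to 18.4), while the other libraries had 184 to 359 counts.

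Gbp3 (ENSMUSG00000028268, 142560026 to 142573209) was the steadiest member outside ND 2, with 45.3, 36, 39.9 and 39.5 CPM in HCD 1 to HCD 4 and 43.9, 3.8, 41.6 and 43.5 CPM in ND 1 to ND 4. Gbp7 (ENSMUSG00000040253, 142530342 to 142550149) had 81.8, 52.9, 54.3 and 55.3 CPM in HCD and 80, 9.52, 55.6 and 66.6 CPM in ND. HCD 1 and ND 1 were its high libraries, with HCD 1 far above the other HCD values. Gbp9 (ENSMUSG00000029298, chromosome 5, 105077630 to 105139539) ran from 14.3 to 19.2 CPM in HCD and from 16.6 to 20.4 CPM in ND 1, ND 3 and ND 4, with 1.51 CPM in ND 2.

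By counts, Irgm1 and Iigp1 of the immunity-related GTPases were the most abundant members. Iigp1 (ENSMUSG00000054072, chromosome 18, 60376027 to 60392634), an effector that loads onto parasite vacuoles, had 333, 227, 275 and 229 CPM in HCD 1 to HCD 4 and 305, 15.2, 264 and 247 CPM in ND 1 to ND 4. The 4 HCD values surrounded the values of ND 1, ND 3 and ND 4, and ND 2 was at 5.77% of the median of the other 7 libraries. Irgm1 (ENSMUSG00000046879, chromosome 11, 48861968 to 48871683) and Igtp (ENSMUSG00000078853, chromosome 11, 58199556 to 58207591) are regulators that keep effector GTPases inactive on the cell's own membranes. Irgm1 had 252, 258, 277 and 220.3 CPM in HCD, against 330.1, 35.9, 291 and 262 CPM in ND. Its HCD values met the ND values, apart from ND 2, only where HCD 3 exceeded ND 4. Igtp had 129.5, 106, 137 and 99.2 CPM in HCD, against 179.9, 9.88, 120.0 and 119.7 CPM in ND, with ND 1 above all other libraries.

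Some of these counts are uncertain because no source used here gives the strand setting, and because the families hold close paralogues. In GENCODE M21, 8.01% of the exon bases of Igtp are shared with Irgm2, 11.3% of those of Gbp7 with the processed pseudogene Gm43802, 3.4% of those of Irf1 with an antisense gene, and 1.16% of those of Gbp9 with each of Gbp4 and Gbp8.

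No member passed the test of diet. All 10 had enough counts to be tested, and 0 were called at an adjusted p under 0.05 (edgeR, quasi-likelihood, Benjamini-Hochberg; members from 0.842 to 0.999), where 0.182% of 13186 tested genes were. DESeq2 and limma-voom also called 0 members each, where they called 3.31% and 0.144% of tested genes. At an unadjusted p under 0.05, 0 members passed by edgeR, 0 by DESeq2 and 0 by limma-voom, against 14.7%, 14.4% and 14.9% of tested genes. The log2 fold changes, HCD over ND, were above 0 for 6 members and below 0 for 4, from -0.22 (Socs1) to 0.36 (Iigp1), with a median of 0.13 against 0.00494 over all tested genes. Gbp5 (-0.00) and Irf1 (-0.02) were counted as below 0 but lay next to it. Standard errors of the members are given next. Their standard errors ran from 0.429 to 0.616, with a median of 0.52 against 0.129 over all tested genes. For Iigp1 the range of 2 SE around the estimate ran from -0.86 to 1.57, and for Socs1 from -1.21 to 0.77, so each range included changes of more than 2-fold.

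Without ND 2, all 10 log2 fold changes were below 0, from -0.58 (Socs1) to -0.03 (Iigp1), with a median of -0.24 against 0.00484 over 13367 tested genes. Of these tested genes, 49% were below 0. ND 2 was the lowest library for all 10 members, so the shift down follows from leaving it out. The members moved together across libraries, so their 10 signs are not separate results. Again 0 members were called (edgeR, adjusted p from 0.279 to 0.942), where 0.0898% of genes were. Unadjusted p-values under 0.05 were reached by 3 members, as by 13.9% of the genes tested without ND 2. All 3 were lower in HCD, as were 7.35% of the genes tested. They were Socs1 (log2 fold change -0.58, SE 0.221, edgeR adjusted p = 0.279), Gbp5 (-0.40, SE 0.171, adjusted p = 0.336) and Irgm1 (-0.23, SE 0.0987, adjusted p = 0.346). Gbp2 was at -0.46 (SE 0.232, edgeR adjusted p = 0.409) and Irf1 at -0.35 (SE 0.17, adjusted p = 0.398). The median SE of the members was 0.166 in this fit. The sign of the diet difference thus turned for Gbp3, Gbp7, Gbp9, Irgm1, Igtp and Iigp1 with the presence of 1 library, and no difference in either fit passed the adjusted threshold.

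**Figure D2:**
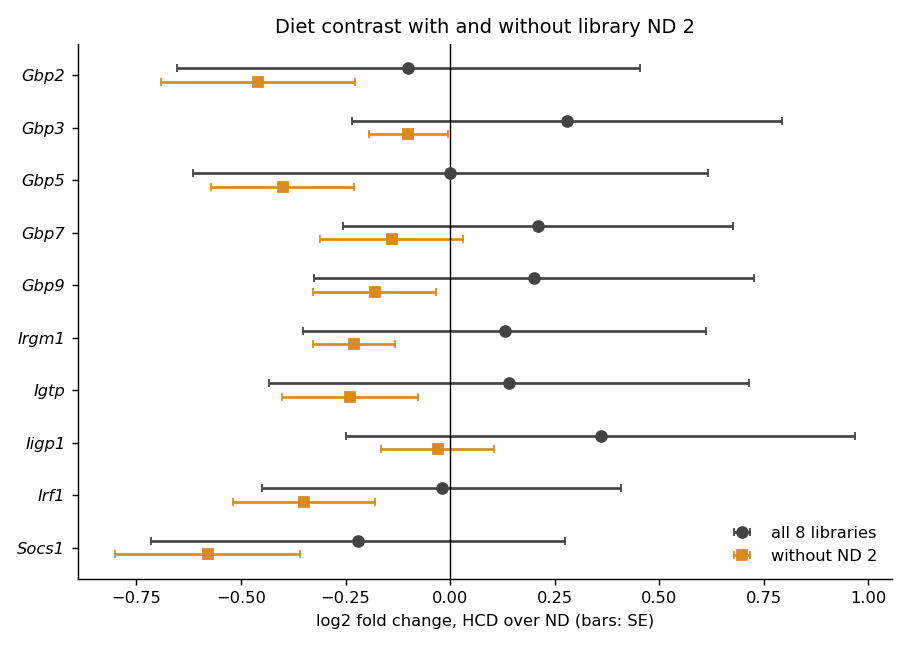
Log2 fold change, HCD over ND, of each member with its SE, from the fit of all 8 libraries (circles) and the fit without ND 2 (squares). All 10 squares lie below 0 and their bars are shorter, with a median SE of 0.166 against 0.52 with all libraries. The shift down of the squares follows from leaving out the library that was lowest for every member.

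The members moved together across libraries, more closely with ND 2 than without it. The Pearson r of log2 CPM over 45 pairs of members was 0.896 to 0.997 with all 8 libraries (median 0.981), and -0.259 to 0.979 over the 7 libraries without ND 2 (median 0.741). The pair with the highest r of the 7 was Gbp5 and Irf1, and the pair with the lowest was Iigp1 and Socs1. Socs1 followed the mean of the other 9 members least, with r = 0.257 over 7 libraries, while Gbp5 followed it most, with r = 0.989. These points share library and depth, and the values are descriptions. On the log2 scale, the mean deviation of the 10 members from their averages was 0.52, 0.14, 0.38 and 0.11 in HCD 1 to HCD 4, against 0.76, -2.83, 0.43 and 0.51 in ND 1 to ND 4. The next lowest libraries after ND 2 were HCD 4 and HCD 2, and ND 1 was the highest.

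Upstream of the members, the receptor and kinase genes did not follow the ND 2 pattern. Ifngr1, the ligand-binding receptor chain, had 22.5, 22.4, 17.2 and 20.3 CPM in HCD and 17.6, 22.7, 23.5 and 20.1 CPM in ND. Ifngr2, Jak1 and Jak2 in ND 2 were at 100.3%, 100.3% and 96.5% of the median of the other 7 libraries. Jak2 averaged 49.5 ± 4.59 CPM in HCD and 59.9 ± 7.41 CPM in ND (SD, n = 4 each, log2 fold change -0.28, edgeR adjusted p = 0.267) and was the 1 of these 4 genes with an unadjusted p under 0.05. Ifng had 1, 2, 6 and 3 counts in HCD, against 9, 0, 3 and 3 counts in ND, and was too scarce to test. The 0 counts of ND 2 allow up to 3, so a difference from most other libraries was not detectable at this depth.

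Other genes of the response were lowest in ND 2 as well. Of the other guanylate-binding proteins, 5 of 6 were tested, and all 5 were lowest in ND 2 and more than 4-fold below every other library. Of the other immunity-related GTPases, 12 of 13 were tested, and 12 were lowest in ND 2 and 9 passed the 4-fold criterion. Of 17 tested other interferon gamma targets, 16 were lowest in ND 2 and 9 passed it. Of all tested genes with a mean of at least 1 CPM, 16.7% were lowest in ND 2 and 0.852% passed the criterion. The list counts also take in tested genes below that mean. In the diet contrast these 3 lists had 0 genes called higher and 0 called lower (edgeR), with 0, 1 and 1 genes at an unadjusted p under 0.05, and medians of -0.04, 0.23 and 0.14 on the log2 scale. Without ND 2 the medians were -0.45, -0.14 and -0.22, with 0 called and 1, 1 and 4 genes at an unadjusted p under 0.05.

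Cxcl11, a gene of the chemokine family, was the target that did not share the ND 2 pattern. It had 14, 12, 13.7 and 13.6 CPM in HCD, against 19.1, 16.3, 22 and 22.1 CPM in ND. The groups did not overlap, as for 9.67% of tested genes, and the log2 fold change was -0.57 (SE 0.121, edgeR adjusted p = 0.0859). Gm5431, a predicted gene placed on the immunity-related GTPase list, was the other gene with an unadjusted p under 0.05, at 1.21 ± 0.386 CPM in HCD and 0.555 ± 0.348 CPM in ND (SD, n = 4 each, edgeR adjusted p = 0.311). Among 5 attenuators of the pathway, 0 were called and 0 had an unadjusted p under 0.05 (edgeR), with a median log2 fold change of 0.01. Among 7 tested IRF and STAT genes of related pathways the counts were also 0 and 0 (edgeR), with a median of 0.13. All 7 were lowest in ND 2, as were 16.7% of all tested genes with a mean of at least 1 CPM. The drop was smaller than in the members: 1 of the 7 passed the 4-fold criterion, against 0.852% of those genes. Their median log2 ratio of ND 2 to the median of the other 7 libraries was -1.15, against -3.30 for the members.

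**Figure D3:**
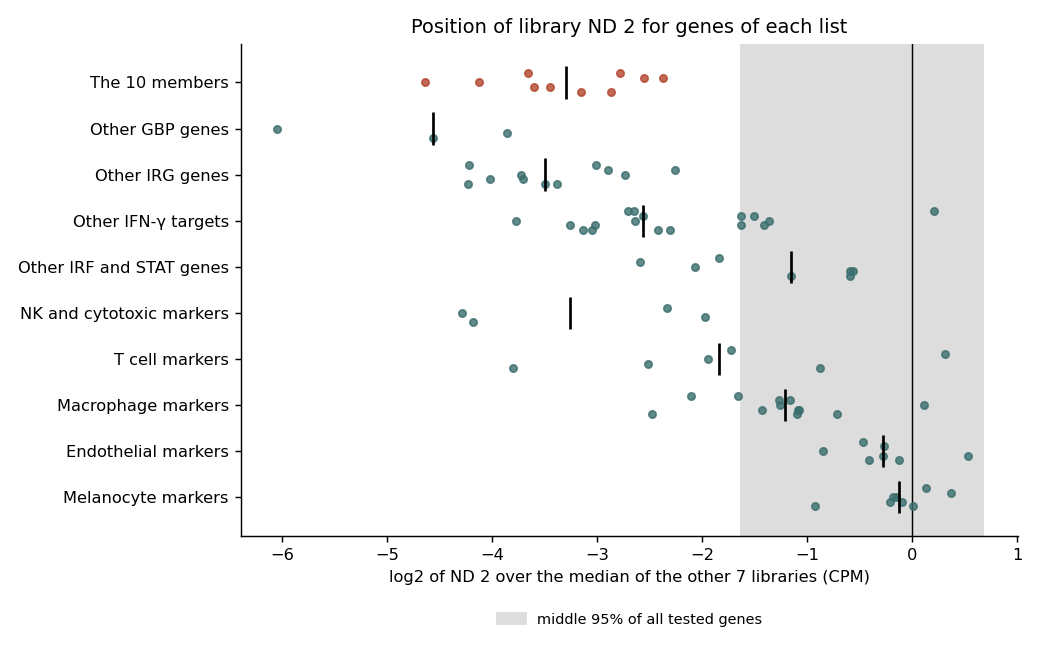
Log2 of the ND 2 level over the median of the other 7 libraries for tested genes of each list (points, 1 gene each; bar, list median); 3 tested genes with 0 counts in ND 2 are not drawn. The members lie from -4.64 to -2.37, outside the grey band from -1.63 to 0.67 that holds the middle 95% of all tested genes with a mean of at least 1 CPM.

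The genes most like the members were chosen by the Pearson r, over 8 libraries, with the members' mean deviation, among 12434 other tested genes with a mean of at least 1 CPM. The first 8 had r from 0.9910 to 0.9977. In this order they were Tap2, a subunit of the peptide transporter for MHC class I, the GTPase gene Tgtp1, the nuclear body gene Sp110, the GTPase gene Tgtp2, Gbp10, the nucleic acid sensor gene Zbp1, the immunoproteasome subunit gene Psmb8 and the ADP-ribosyltransferase gene Parp14. Tap2 had 50.6, 42, 48.7 and 40.1 CPM in HCD, against 61, 8.98, 45.5 and 48 CPM in ND. Over the 7 libraries without ND 2, r ran from 0.699 (Parp14) to 0.954 (Tap2). Tgtp1 and Tgtp2 are near-identical copies, so their separate counts are uncertain.

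Summed markers of cells that make or answer interferon gamma were lower in ND 2 to differing degrees. The 8 NK and cytotoxic markers summed to 10.3 to 14.8 CPM in HCD and 10.3 to 17.2 CPM in ND 1, ND 3 and ND 4, against 1.39 CPM in ND 2, where Klrb1c, Gzma and Eomes had 0 counts. Klrb1c, Gzma and Eomes were too scarce over the 8 libraries to be tested, so their 0 counts show no loss by themselves. All 4 tested markers of this list were lowest in ND 2, as were 16.7% of all tested genes with a mean of at least 1 CPM. The 10 T cell markers summed to 12.7 to 20.7 CPM in HCD, 17.4 to 23.1 CPM in ND 1, ND 3 and ND 4 and 8.74 CPM in ND 2, where Cd28 had 0 counts and 5 of 6 tested markers were lowest. Cd28 was likewise too scarce to be tested. The 12 macrophage markers summed to 479.7 to 634 CPM in HCD, 352 to 541 CPM in ND 1, ND 3 and ND 4 and 309.8 CPM in ND 2, with none at 0 and 9 of 12 lowest there. The share of 16.7% holds beside the T cell and macrophage counts too. The 4-fold criterion was passed by 2 of 4 tested NK and cytotoxic, 1 of 6 T cell and 0 of 12 macrophage markers. Of all tested genes with a mean of at least 1 CPM, 0.852% passed it. Single markers went the other way: Cd8b1 and Cd68 in ND 2 were above the median of the other 7 libraries (log2 ratio 0.31 and 0.11).

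Melanocyte markers summed to 29339.9 CPM in ND 2, within the range of the other libraries. Skeletal muscle markers summed to 2.06 to 4.79 CPM in HCD, 3.26 to 30.1 CPM in ND 1, ND 3 and ND 4 and 47.3 CPM in ND 2, the highest library. ND 2 had 16912834 counts in all, more than ND 3, ND 4, HCD 1 and HCD 2. The part of cell content in the level of the members was not tested.

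**Figure D4:**
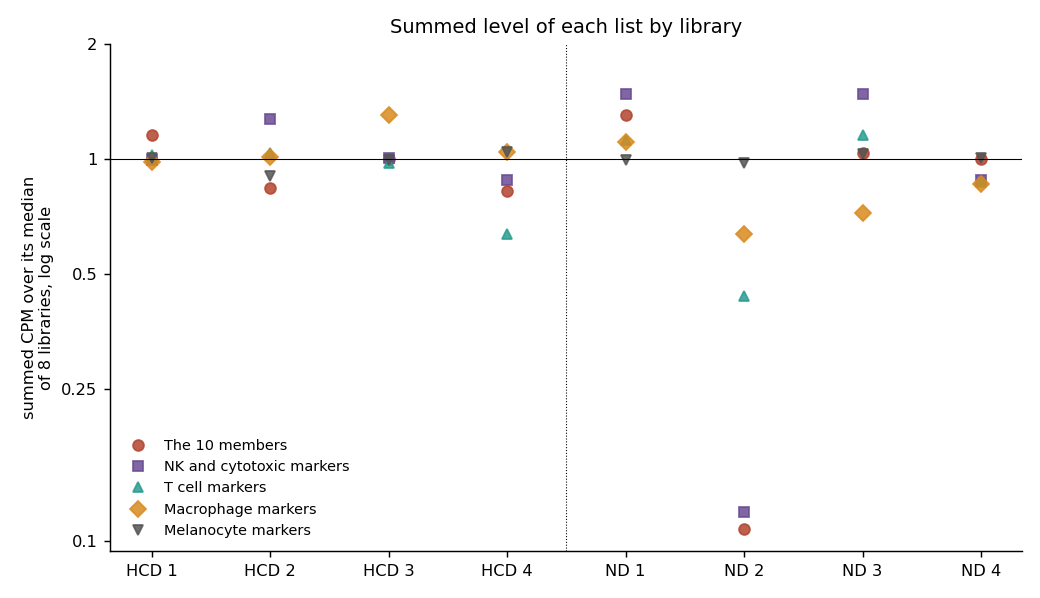
Summed CPM of the members and of 4 marker lists in each library, divided by the median of the 8 libraries (log axis). In ND 2 the members (112 CPM) and the NK and cytotoxic markers (1.39 CPM) are farthest below their medians, the T cell and macrophage markers less so, and melanocyte markers are near theirs.

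Levels can be compared between genes only per length, for which the deposited FPKM was used (fragments per kilobase of gene length, scaled to library size). By the median over 8 libraries the order was Iigp1 at 80.5, Gbp2 at 64.4, Irgm1 at 35.8, Igtp at 23, Irf1 at 10, Gbp7 at 8.4, Gbp3 at 6.68, Socs1 at 2.29, Gbp9 at 1.86 and Gbp5 at 1.47 FPKM. In the 7 libraries without ND 2, ranges of neighbours overlapped from Iigp1 down to Igtp, between Irf1 and Gbp7, and from Socs1 down to Gbp5. Igtp (19.3 to 34.8 FPKM) lay above Irf1 (6.8 to 13.3), Gbp7 (8.24 to 12.9) above Gbp3 (6.06 to 7.73), and Gbp3 above Socs1 (1.73 to 3.54) in every one of these libraries.

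Gbp2 ran from 43.1 to 95.2 FPKM in HCD, against 71.6 to 104 FPKM in ND 1, ND 3 and ND 4 and 8.04 FPKM in ND 2. Gbp5 ran from 1.04 to 1.64 FPKM in HCD, against 1.47 to 2.04 FPKM in ND 1, ND 3 and ND 4 and 0.0592 FPKM in ND 2. The order depends on the gene lengths behind the FPKM. The length recovered for Igtp was 5121 bases, while its exons in GENCODE M21 cover 2022 bases, and for Iigp1 3121 bases against 5823. With M21 exon lengths the medians became 72.5 for Gbp2, 58.2 for Igtp, 45 for Irgm1 and 43.1 for Iigp1, Gbp3 (12.4) stood above Gbp7 (9.79), the reverse of their deposited order, and Socs1 moved to the last place at 0.961.

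**Figure D5:**
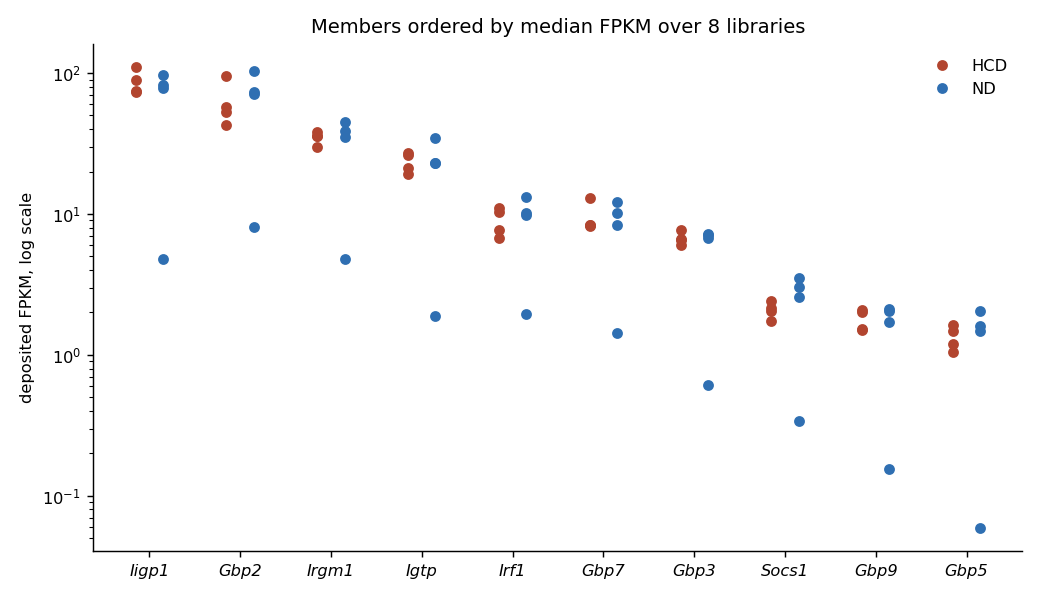
Deposited FPKM (log axis) of the 10 members in the 4 HCD and 4 ND libraries, ordered by the median over 8 libraries. HCD and ND points overlap in each gene, and the lowest ND point is ND 2, down to 0.0592 FPKM for Gbp5.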

How the data were processed

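RNA-seq libraries of 8 tumours (4 HCD, 4 ND) were used, grouped by the diet in their labels. Per the labels' protocols, total RNA (RNeasy mini) went into paired-end TruSeq libraries. CASAVA 1.8, TopHat2 2.0.9, HTSeq, edgeR and the build mm10 stand in the submitters' processing notes without a role. The notes and labels state neither an annotation release nor a strand setting. Per the file headers, the authors deposited a whole-number count per Ensembl gene, not normalized, and an FPKM value. Gene names and coordinates come from GENCODE M21 (GRCm38), which named 34267 of 34745 genes.

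The counts were tested with edgeR 4.0.16 (quasi-likelihood F-test, TMM factors, minimum count 10, minimum total 15, diet as the only term, R 4.3.3) on 13186 genes, with Benjamini-Hochberg adjustment over all of them and a threshold of 0.05. The SE was derived from the log2 fold change and its F statistic. Log2 CPM used a prior count of 2. The fit was tested on simulated data. Alternatives were DESeq2 1.42.0, limma-voom (limma 3.58.1), other normalization, filter and dispersion settings, a replicate block, a term for ND 2 to ND 4, and each library left out in turn. FPKM served for levels between genes. Beyond the members, genes were named if they had an unadjusted p under 0.05 (up to 3 per pathway list), were an upstream gene, or were among the 8 most like the members. The members and lists were chosen with earlier results of these data known. Some genes of the pathway and marker lists are not reported here.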

Additional observations from a re-analysis of the deposited data

Results flagged for a closer look

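In each diet group, the CPM of 26 named genes were checked for a library far from the other 3 of its group (the gap to the nearest library over the range of the group, above Dixon's 95% critical value for 4 values), which gave 52 checks. Chance flags about 1 group in 20, and 4 were found. Gbp3 was at 3.8 CPM in ND 2, below 41.6 to 43.9 CPM in the other ND libraries (gap over range 0.942). Gbp7 was at 81.8 CPM in HCD 1, above 52.9 to 55.3 CPM in the other HCD libraries (0.918). Gm5431 was at 1.79 CPM in HCD 3, above 0.959 to 1.09 CPM in the other HCD libraries (0.842), on 31 counts. Zbp1 was at 2.83 CPM in ND 2, below 47.5 to 54.9 CPM in the other ND libraries (0.857). Zbp1 was among the 8 genes chosen for a profile like that of the members, which is lowest in ND 2, so its value there follows from the choice and is not to be read against the chance rate. For the other members ND 2 was also the library farthest from its group, with values of 0.646 (Igtp) to 0.802 (Iigp1), where the spread among ND 1, ND 3 and ND 4 kept the measure under that value.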

How the results depend on the processing

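No member was called under any of the 15 alternatives (lowest adjusted p 0.279), while 33 of 150 single-member values turned direction, 19 of them with 1 library left out. In the main fit Gbp5 was at -0.00, Irf1 at -0.02 and Gbp2 at -0.10, so a turn of their sign alone says little. With 1 library left out, the median log2 fold change of the members ran from -0.24 (without ND 2) to 0.37 (without ND 1), and single members ran from -0.46 to 0.23 (Gbp2), -0.10 to 0.44 (Gbp3), -0.40 to 0.30 (Gbp5), -0.14 to 0.48 (Gbp7), -0.18 to 0.40 (Gbp9), -0.23 to 0.36 (Irgm1), -0.24 to 0.51 (Igtp), -0.03 to 0.60 (Iigp1), -0.35 to 0.25 (Irf1) and -0.58 to 0.03 (Socs1). With a term for ND 2 to ND 4, which leaves ND 1 as the only normal diet library in the contrast, the median was -0.48, and values turned to -0.12 (Gbp3), -0.39 (Gbp7), -0.24 (Gbp9), -0.39 (Irgm1), -0.60 (Igtp) and -0.19 (Iigp1). With limma-voom, which averages log values, they turned to 0.33 (Gbp2), 0.80 (Gbp5), 0.26 (Irf1) and 0.21 (Socs1), with a median of 0.64. Without an expression filter Gbp5 was at 0.01. Over all genes, 24 were called, against 437 with DESeq2, 93 without the filter, 50 with robust dispersion, 6 with the term and 0 to 12 with 1 library left out (edgeR called 0 without HCD 4 and 0 without ND 4; at an unadjusted p under 0.05 these fits had 1516 and 1603 genes).

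The replicate numbers of the labels did not pair the libraries: deviations from the group means correlated at 0.0249, -0.0113, -0.0676 and 0.107 for numbers 1 to 4, and 1 of 8 libraries correlated best with its own number. With the replicate block, 1 gene and 0 members were called, the median of the members was 0.44, and values turned to 0.24 (Gbp2), 0.36 (Gbp5) and 0.20 (Irf1). The causes of these shifts were not tested. Low counts limit the precision for Socs1, Gm5431, Ifng and, in ND 2, Gbp5, Gbp10 and Sp110.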
